A study of Mus musculus with 2 samples.

Results

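The stefin A family was described through 6 genes, Stfa1, Stfa2, Stfa3, Stfa2l1, Cstdc4 and Cstdc5, in neutrophils from mouse liver metastases. The metastases came from 4T1, a mammary carcinoma line of BALB/c origin that lacks the hormone receptors and HER2. The members were chosen by symbol, with earlier marker values of these data known, and all 6 were among the 21544 genes of the authors' neutrophil gene table. Metastases had grown from 4T1 cells with a hairpin against Zdhhc17 (shZdhhc17), a palmitoyltransferase gene, or with a scrambled hairpin (shSCR), both delivered by a pLKO.1 lentivirus with puromycin selection. The hairpin was carried by the injected cancer cells, while the neutrophils came from the hosts, which in both groups were female BALB/c mice of 6 to 8 weeks. In each group 250000 cells were injected into the spleen, the spleen was removed, and metastases were dissected at day 14. Cells of 3 dissociations were pooled in equal numbers and loaded as 1 BD Rhapsody library, so a group is 1 sample, the mice cannot be told apart, and no test between groups was possible.

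The shZdhhc17 library held 21511 cells, of which 4328 were neutrophils, and the shSCR library held 22860 cells, of which 6594 were neutrophils. Neutrophils had a median of 1418 UMIs (molecule counts) per cell in shZdhhc17 and 2464 in shSCR. The authors had split them into 9 clusters. Of 8 neutrophil genes, 7 were markers of some cluster in the authors' deposited table, as were 0.835% of all genes of the neutrophil gene table. A marker sets a cluster against other neutrophils, so such a listing does not check that the cells are neutrophils. Of 25 genes that mark other cells (lymphocytes, mononuclear phagocytes, mast cells, epithelium or hepatocytes) 18 were in that table and 0 of these were markers, which at this share says little about such cells. The summed levels of these genes were not analysed here. In all, 609 barcode numbers occurred in both libraries, 31 of them among neutrophils.

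Stefins are small intracellular proteins of the cystatin superfamily. They bind in the active site cleft of papain-type cysteine proteases, such as the lysosomal cathepsins B, H, L and S, and block them reversibly. Human cells have a single stefin A gene, CSTA, whereas mice carry a cluster of near-copies, several of which are known to be expressed in neutrophils and other myeloid cells. Stfa1, Stfa2 and Stfa3 are the named stefin A genes, Stfa2l1 is annotated as a relative of Stfa2, and Cstdc4 and Cstdc5 are annotated only as genes with a cystatin domain.

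All 6 genes lay within 298582 bases of chromosome 16 (GRCm38, 36156811 to 36455392, GENCODE M21), a stretch in which 9 protein-coding genes and 7 pseudogenes start. Stfa2l1 (36156811 to 36161953), Cstdc4 (36184212 to 36188111) and Stfa1 (36276951 to 36285373) are on the plus strand. Cstdc5 (36359382 to 36367748), Stfa2 (36403992 to 36408457) and Stfa3 (36450537 to 36455392) are on the minus strand. The annotation names 4 of them by the same symbol, while Cstdc4 and Cstdc5 were matched by position to Gm5483 and BC100530. The other 3 protein-coding genes of the stretch are Cstdc6, Csta2 and Csta3, which also belong to the family.

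How alike the members are bears on the values of each gene, since reads from near-identical stretches can be assigned to the wrong copy. Each member has a 3-exon transcript whose middle exon, coding throughout, is 102 bases long. These exons are shown from GENCODE M21 (GRCm38), 5′ to 3′ along the gene, because they let the members be compared base by base. Capitals mark bases that differ from Stfa3 at the same position.
Stfa3 (chr16:36452151-36452252, minus strand): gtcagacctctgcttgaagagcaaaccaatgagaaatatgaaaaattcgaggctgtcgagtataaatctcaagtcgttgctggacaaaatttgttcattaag
Stfa2 (chr16:36405130-36405231, minus strand): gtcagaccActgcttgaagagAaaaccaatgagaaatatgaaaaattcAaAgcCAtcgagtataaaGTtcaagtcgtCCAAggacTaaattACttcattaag
Stfa2l1 (chr16:36159946-36160047, plus strand): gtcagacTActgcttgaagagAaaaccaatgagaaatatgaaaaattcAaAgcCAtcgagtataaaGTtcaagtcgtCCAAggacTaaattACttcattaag
Cstdc5 (chr16:36364212-36364313, minus strand): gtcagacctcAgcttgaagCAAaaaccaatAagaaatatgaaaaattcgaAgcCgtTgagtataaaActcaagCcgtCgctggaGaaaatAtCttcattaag
Stfa1 (chr16:36280466-36280567, plus strand): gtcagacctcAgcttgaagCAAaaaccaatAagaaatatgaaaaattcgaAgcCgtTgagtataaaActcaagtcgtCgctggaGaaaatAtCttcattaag
Cstdc4 (chr16:36186364-36186465, plus strand): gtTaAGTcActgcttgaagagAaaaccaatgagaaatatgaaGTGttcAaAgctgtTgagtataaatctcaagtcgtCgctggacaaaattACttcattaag
Stfa1 differed from Stfa3 at 13 of these bases, Cstdc5 at 14, Stfa2 and Cstdc4 at 15 and Stfa2l1 at 16.

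Over the whole coding sequence, the 15 pairs of members were 77.7% to 97.9% identical, with a median of 81.6%. Cstdc5 and Stfa1 were the closest pair at 97.9%, and Stfa2 and Stfa2l1 followed at 96.4%. Stfa3 was at most 84.5% identical to another member. Cstdc6, the neighbour that is not among the 6, was 96.2% identical to Cstdc5 and 94.4% to Stfa1.

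**Figure D1:**
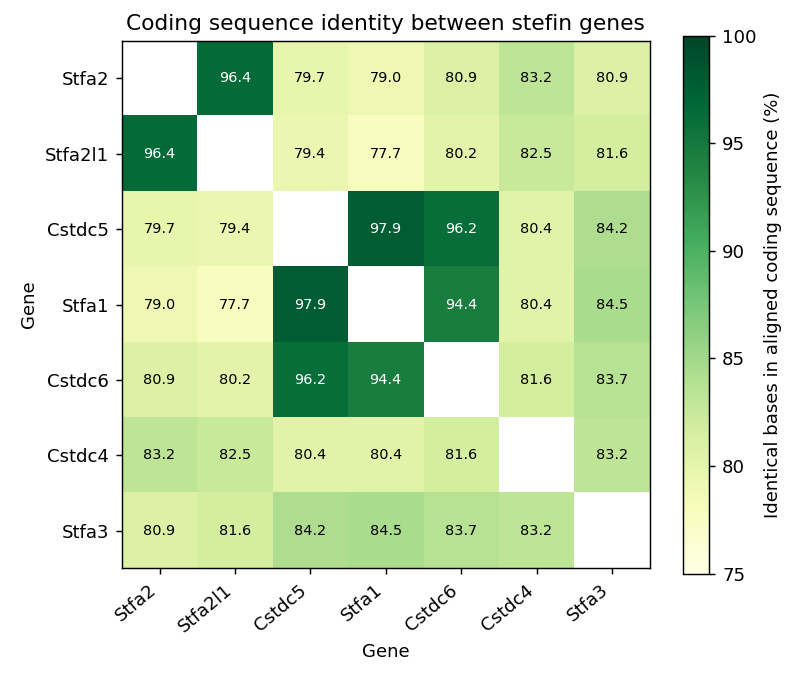
Percent of identical bases in aligned coding sequences for each pair of the 6 members and Cstdc6 (rows and columns are genes, the colour scale runs from 75 to 100%). Stfa2 and Stfa2l1 form one close pair at 96.4%, Cstdc5, Stfa1 and Cstdc6 form a close trio at 94.4% or more, and Stfa3 and Cstdc4 stand at 84.5% or less from all others.

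The members also differed in how much of the transcript is their own. No stretch of 50 bases in the Stfa3 transcript occurred in a transcript of any other gene, nor did any of 30 bases. Of the 50-base stretches of Stfa2, 15.9% occurred in another gene, among them Stfa2l1, and for Stfa2l1 the share was 24.6%. The share was 26.9% for Stfa1, 33.5% for Cstdc5 and 35.6% for Cstdc4. It is not known here what the authors' pipeline did with reads that match several genes. The values of the 5 members other than Stfa3 may thus be affected by such reads, to an extent that was not tested. These shares count stretches along the whole transcript and not reads, so they do not measure the error in the values of any member.

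The upstream regions were alike too. RefSeq (GRCm38.p6) gives a start for each member, and the 80 bases before it are shown because 4 members were listed for the same neutrophil cluster. For Stfa2, Cstdc5 and Stfa1 this start lies inside the gene as GENCODE M21 draws it, so the stretch shown may be transcribed. Upstream and promoter here refer to the RefSeq start only. Capitals mark TTTAAA, a motif picked after these sequences had been seen.
Stfa3 (chr16:36455393-36455472, minus strand): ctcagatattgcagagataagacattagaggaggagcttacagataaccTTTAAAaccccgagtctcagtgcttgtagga
Stfa2 (chr16:36408364-36408443, minus strand): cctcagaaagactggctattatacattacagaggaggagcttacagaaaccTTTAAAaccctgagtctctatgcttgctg
Stfa2l1 (chr16:36156731-36156810, plus strand): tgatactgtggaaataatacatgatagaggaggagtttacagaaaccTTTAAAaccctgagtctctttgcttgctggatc
Cstdc5 (chr16:36367571-36367650, minus strand): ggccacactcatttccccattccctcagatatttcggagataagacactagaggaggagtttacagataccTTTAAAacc
Stfa1 (chr16:36277068-36277147, plus strand): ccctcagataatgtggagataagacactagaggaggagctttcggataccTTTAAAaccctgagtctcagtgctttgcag
Cstdc4 (chr16:36184132-36184211, plus strand): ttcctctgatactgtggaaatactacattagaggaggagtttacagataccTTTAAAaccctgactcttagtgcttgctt
TTTAAA, which reads the same on both strands, was present in 6 of 6 promoters (250 bases before to 50 after the start), against 13.2% of 32851 mouse promoters. Its first base lay 29 to 33 bases before the RefSeq start in 5 members and 9 bases before it in Cstdc5. These distances depend on the annotation for Stfa2, Cstdc5 and Stfa1. Over 56 bases around the motif, from 40 before to 10 after it, pairs of members were 83.3% to 94.4% identical. TTGCNNAA, the core of the site bound by C/EBP factors, was present in Stfa1 and Cstdc5 and in 10.8% of all promoters, both strands counted. AGGAAGT, a PU.1-type core, and TATAAA were present in 0 of 6, against 9.35% and 13.6% of all promoters. A match describes the letters only.

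In neutrophils, 5 of the 6 members were among the 180 genes listed as cluster markers, against 0.835% of all 21544 genes. The members had been chosen with this list known, so the count is a description. The 180 entries are 180 distinct genes, so no gene is listed for more than 1 cluster, and absence from a list does not show that a gene was low in that cluster. Stfa3, Cstdc5, Stfa2 and Cstdc4 were listed for the ECM Remodeling cluster, whose 20 markers are 0.0928% of the genes, and Stfa2l1 for Migration 2, with the same share. A marker is a gene among the 20 highest of a cluster by the authors' marker score, the product of a log2 fold change and a specificity score. The log2 fold change sets a cluster against all other neutrophils of both libraries, with a pseudocount of 1 on counts per 10000, so it understates differences in low genes.

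Stfa3 led the ECM Remodeling cluster, with a log2 fold change of 3.45 in the authors' deposited table. There it was detected in 801 of the 846 cells of the cluster and in 2512 of the 10076 other neutrophils, or 94.7% and 24.9% (cell numbers recovered from the fractions of the authors' deposited table). This was the widest gap in detection among the 20 markers of the cluster, at 69.8 percentage points. The marker score that picks these genes itself uses the detected fractions, and Stfa3 was among the variable genes used for clustering. A wide gap is thus partly built in and is given as a description. Of the 4 members listed there, Stfa3, which has no shared 50-base stretch, had the highest fold change and the lowest detection elsewhere. Cstdc6, the neighbour also listed there, was detected in 20.3% of other neutrophils, although 33.7% of its 50-base stretches are shared. Whether shared stretches bear on detection was not tested.

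Cstdc5 and Stfa2 came next and were close to each other, with log2 fold changes of 2.73 and 2.64 in the authors' deposited table. Cstdc5 was detected in 844 of 846 ECM Remodeling cells and in 48.8% of other neutrophils, by the authors' deposited table. For Stfa2 the authors' deposited table gives 843 of 846 cells and 42.9%. Both genes were thus at 0 in at most 3 cells of the cluster, fewer than the 45 cells in which Stfa3 was at 0.

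Cstdc4 was the weakest of the 4, with a log2 fold change of 1.84 in the authors' deposited table. It was detected in 731 of 846 ECM Remodeling cells (86.4%) and in 47.6% of other neutrophils, again by the authors' deposited table. Its detection outside the cluster was near that of Cstdc5, while inside it 115 cells lacked it. At the lower edge of the list, Cd52 and Asprv1 ranked 19 and 20 with log2 fold changes of 1.21 and 1.07 in the authors' deposited table.

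**Figure D2:**
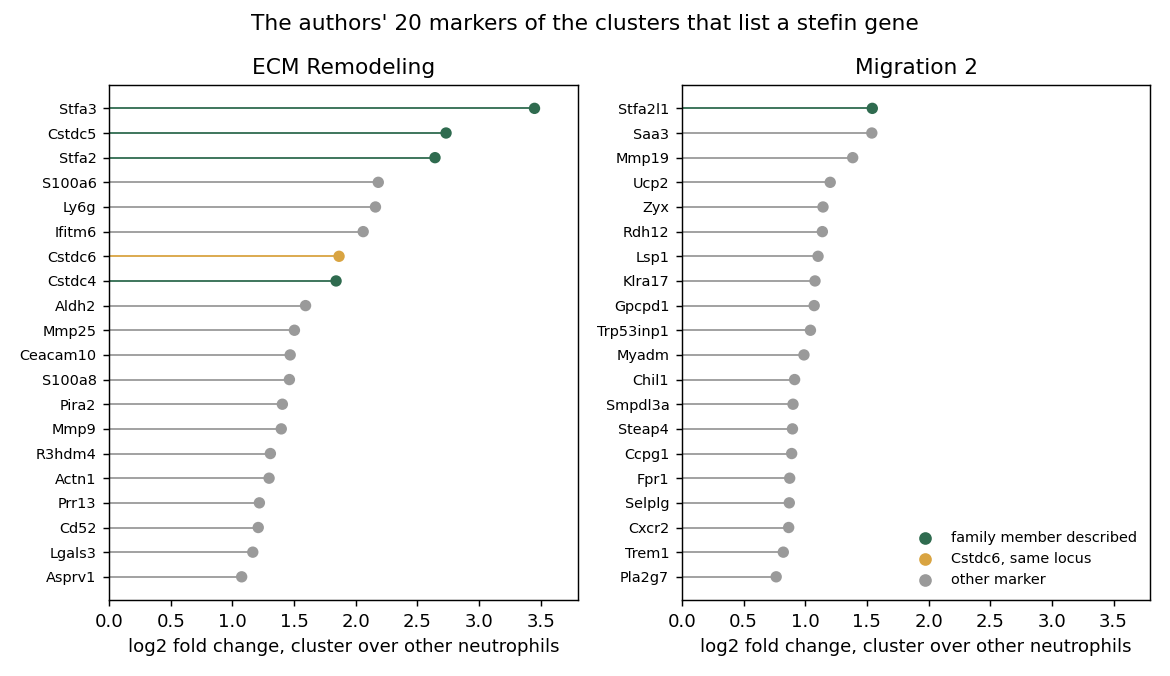
Log2 fold change (horizontal axis) of the 20 listed markers (rows) of ECM Remodeling and of Migration 2 over all other neutrophils, from the authors' deposited table. Green points are members, the ochre point is Cstdc6 and grey points are other markers. Stfa3, Cstdc5 and Stfa2 are the 3 highest in ECM Remodeling, and Stfa2l1 at 1.54 lies level with Saa3 in Migration 2.

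Among the genes nearest to the members by log2 fold change in the same cluster, S100a6 (2.18), Ly6g (2.16) and Ifitm6 (2.06) of the authors' deposited table stood next below Stfa2. Ly6g encodes a surface protein of mouse neutrophils, and S100a6 a calcium-binding protein. Of these 3, Ly6g came nearest to Stfa3 in detection, at 88.3% inside the cluster and 22.6% outside in the authors' deposited table. Cstdc4 had Cstdc6 (1.86) and, beyond Ifitm6, Aldh2 (1.59) as its nearest genes in the authors' deposited table. Cstdc6 was also the only other marker of any cluster that starts within 1000000 bases of a member, and was detected in 83.3% of ECM Remodeling cells and 20.3% of others in the authors' deposited table. Of its 50-base stretches 33.7% occurred in Cstdc5 or Stfa1, so reads within them cannot be told apart from reads of those genes.

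Other genes of the family and of its pathway were looked up in the marker list, which holds 0.835% of all genes of the neutrophil gene table. Of 26 other stefin and cystatin symbols on a list, older names included, 12 were in the neutrophil gene table and 2 were markers, Cstdc6 and Cstb. Cstb, which encodes stefin B, was listed for Hypoxia/Angiogenesis, with a log2 fold change of 2.31 and detection in 50.6% of its cells against 31.6% of others in the authors' deposited table. Of the 10 papain-type cathepsin genes, the known targets of stefins, 8 were in the neutrophil gene table and 0 were markers. At the share of all genes, 0 of 8 says little about the cathepsins. Of 15 other protease inhibitor genes 2 were markers, Serpinb1a in Early-Stage 2 (2.08) and Wfdc17 in Migration 1 (1.79) in the authors' deposited table. Such counts over lists of 20 markers per cluster do not show that the remaining genes did not differ.

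Granule genes, which are made in a known order as neutrophils mature, were listed for several clusters. Of all genes of the neutrophil gene table, 0.835% were on the marker list. Of 6 azurophil granule genes, 5 were in that table and these 5 were markers, all in Early-Stage 1. Specific granule genes had 9 of 9 on the marker list, in Early-Stage 2, NETosis 1 and NETosis 2. None of these 14 was listed for a cluster that lists a member. ECM Remodeling and Migration 2 hold 20 of the 180 markers each, and no gene is listed for more than 1 cluster. Most markers of any kind thus fall elsewhere, and a separation of granule genes from the members was not tested. Of 5 gelatinase granule genes, Mmp25 (1.50) and Mmp9 (1.40), which encode a membrane-bound and a secreted metalloproteinase, were listed for ECM Remodeling in the authors' deposited table. Mmp8, also of that list, was listed for Migration 1. Of 11 late neutrophil genes 6 were markers. Among these, Cxcr2 shared a cluster with a member, while Retnlg, Il1b, Cxcr4 and Csf3r were listed for clusters that list no member. These lists were chosen with earlier results of these data known.

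Stfa2l1, the near-copy of Stfa2, was listed for a different cluster, where it ranked first by marker score. The values of Stfa2l1 in ECM Remodeling and of Stfa2 in Migration 2 were not analysed here. In Migration 2 the log2 fold change of Stfa2l1 was 1.54 in the authors' deposited table. It was detected there in 1277 of 1305 cells (97.85%) and in 57.4% of the 9617 other neutrophils. Saa3, a serum amyloid gene, stood level with it at 1.54, and Mmp19 (1.39) and Ucp2 (1.20) came next in the authors' deposited table. Cxcr2, the receptor for neutrophil-attracting chemokines, was listed there at 0.87 in the authors' deposited table. Saa3 was detected in 77.5% of the cluster and 33.5% of others in the authors' deposited table, so Stfa2l1 was the more widespread gene both inside and outside.

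Stfa1 was the exception among the members. It was in the neutrophil gene table, but was listed for none of the 9 clusters and lacked the flag for the 1000 most variable genes. The other 5 members had that flag, against 4.64% of all genes in the table, and flagged genes were the input of the authors' clustering. Stfa1 and Cstdc5 were 97.9% identical in coding sequence, and reads from shared stretches cannot be told apart. Of the 50-base stretches of Stfa1, 26.9% occurred in another gene. Whether this bears on the absence of Stfa1 from the lists was not tested.

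Most neutrophils with a stefin transcript lay outside the cluster that lists it, as did most neutrophils. ECM Remodeling held 7.75% of all neutrophils and Migration 2 held 11.9%. Over all 10922 neutrophils, Stfa2l1 was detected in 62.2% (95% exact interval 61.3 to 63.1), Cstdc5 in 52.8% (51.8 to 53.7) and Cstdc4 in 50.6% (49.7 to 51.5). Stfa2 was detected in 47.3% (46.4 to 48.3) and Stfa3 in 30.3% (29.5 to 31.2). No neighbours in this order had overlapping intervals, but these cover counting error only. The shares come from the same cells, and reads may be assigned to the wrong copy, so the order was not tested. Of the Stfa3-positive cells 24.2% were ECM Remodeling cells, against 16.3% for Stfa2, 14.6% for Cstdc5 and 13.2% for Cstdc4. Migration 2 held 18.8% of the Stfa2l1-positive cells. Free RNA was corrected by the authors before deposit. No share in a cell type that should lack these genes was analysed here, and the part of background in the detection elsewhere was not tested.

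**Figure D3:**
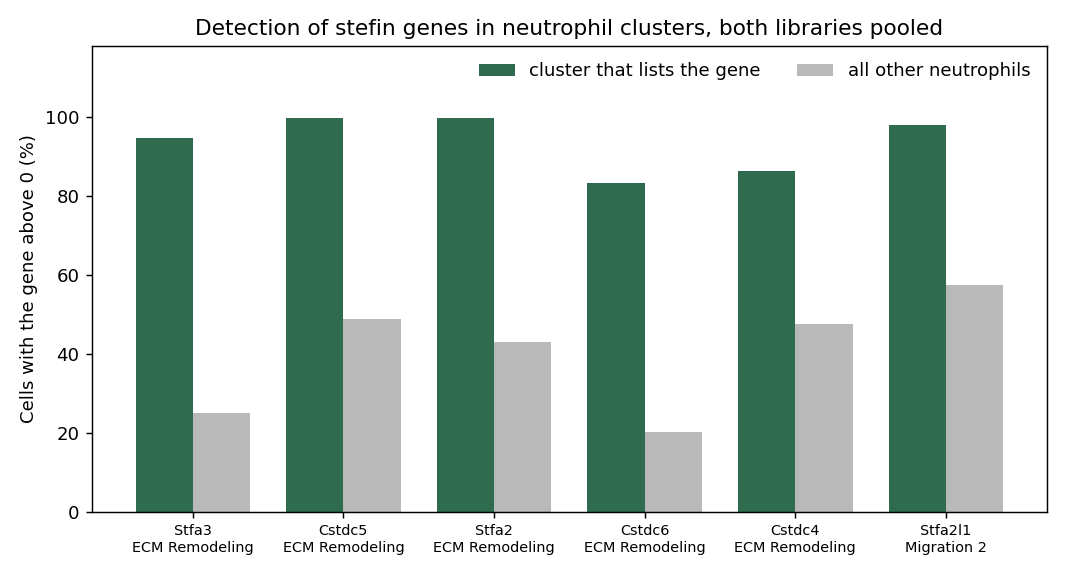
Percent of cells with the gene above 0 (vertical axis) in the cluster that lists it (green) and in all other neutrophils (grey), both libraries pooled, from the authors' deposited table. Detection is 83.3% or more in every listing cluster and spans 20.3% (Cstdc6) to 57.4% (Stfa2l1) elsewhere.

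Depth per cell moved with some of these shares. ECM Remodeling cells had a median of 4667.5 UMIs, against 1797 in the other neutrophils. Depth was not equalised between clusters, and its part in the higher detection was not tested. In all, 4 clusters had more UMIs per cell than ECM Remodeling, with medians of 7842 to 18559, and values of the members in those clusters were not analysed here. For Migration 2 the depth ran the other way, with a median of 1854 UMIs in the cluster and 2095 outside, while Stfa2l1 was detected in a larger share of the cluster.

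**Figure D4:**
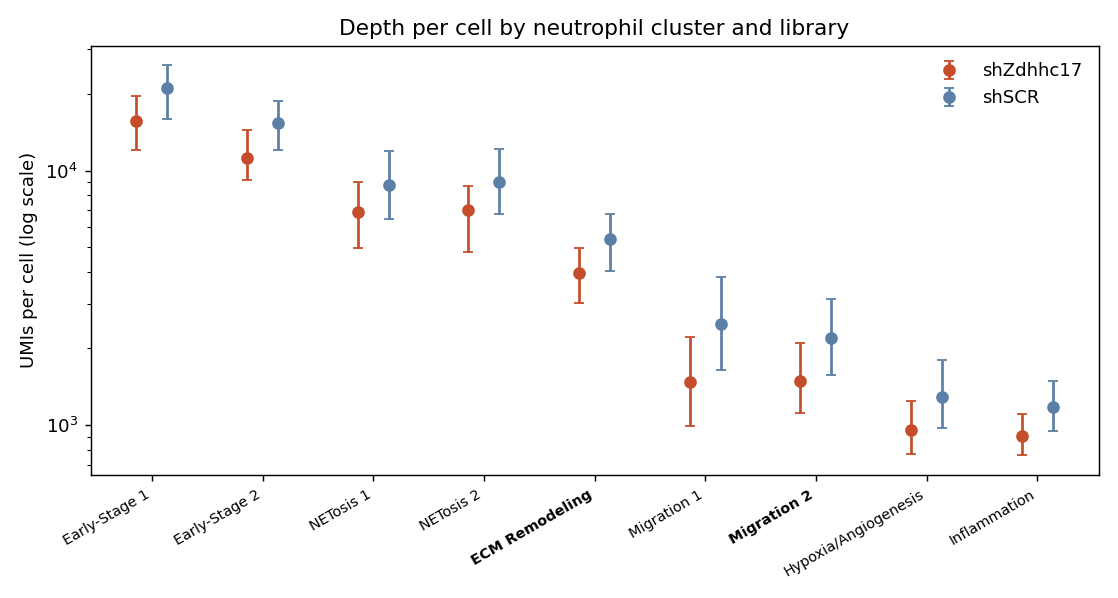
UMIs per cell (vertical log axis) in the 9 neutrophil clusters, deepest at the left, for shZdhhc17 (orange) and shSCR (blue). Points are medians and bars span the lower to the upper quartile. ECM Remodeling is the fifth deepest and Migration 2 the seventh (names in bold), and shZdhhc17 lies below shSCR in each cluster.

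Between the libraries, members could be compared only as far as pooled detection allows. The ECM Remodeling cluster held 348 shZdhhc17 and 498 shSCR cells. Because Cstdc5 was at 0 in only 2 cells of the cluster, at least 346 shZdhhc17 cells (99.4%) and at least 496 shSCR cells (99.6%) had it, whichever library those 2 came from. For Stfa2 the least possible shares were 99.1% in shZdhhc17 and 99.4% in shSCR. The libraries can thus have differed in detection by at most 0.575 percentage points for Cstdc5 and 0.862 for Stfa2.

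For the other members the limits were wider. Stfa3 was present in at least 87.1% of shZdhhc17 and 91.0% of shSCR cells of ECM Remodeling, and Cstdc4 in at least 67.0% of shZdhhc17 and 76.9% of shSCR cells. Stfa2l1 was present in at least 95.3% of the 601 shZdhhc17 cells and 96.0% of the 704 shSCR cells of Migration 2. The libraries could differ by at most 12.9 percentage points for Stfa3, 4.66 for Stfa2l1 and 33.0 for Cstdc4. These limits concern detection, not the level of a transcript, which was not analysed here by library.

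**Figure D5:**
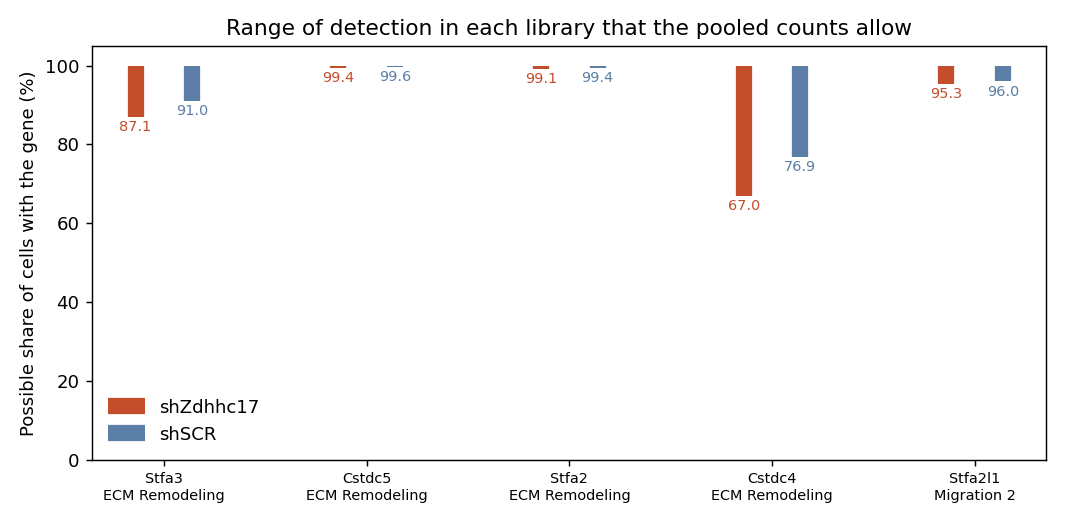
Range of the share of cells with each listed member (vertical axis, percent) that the pooled counts allow in shZdhhc17 (orange, left) and shSCR (blue, right), within the cluster named under the gene. The number at each bar is its lower end. Cstdc5 and Stfa2 are pinned above 99% in both libraries, while Cstdc4 could be as low as 67.0% in shZdhhc17 and 76.9% in shSCR.

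The same reasoning gives how often members occurred together. At least 796 of the 846 ECM Remodeling cells (94.1%) had Stfa3, Stfa2 and Cstdc5 at once. By library this was at least 298 of 348 shZdhhc17 cells (85.6%) and 448 of 498 shSCR cells (90.0%). With Cstdc4 added, at least 681 cells (80.5%) had all 4 members, which leaves at least 183 shZdhhc17 cells (52.6%) and at least 333 shSCR cells (66.9%). These limits follow from the high detection of each gene alone and do not measure how the genes varied together.

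The clusters that list members made up a somewhat different part of the neutrophils in each library. ECM Remodeling and Migration 2 together held 949 of 4328 shZdhhc17 neutrophils, or 21.9% (exact 95% interval 20.7 to 23.2), and 1202 of 6594 shSCR neutrophils, or 18.2% (17.3 to 19.2). The ratio of shZdhhc17 over shSCR was 1.20 (1.11 to 1.30, counting error only). ECM Remodeling alone had a ratio of 1.06 (0.934 to 1.21), with overlapping exact intervals, and Migration 2 one of 1.30 (1.17 to 1.44), with separate ones. The exact intervals of ECM Remodeling were separate under 3 other choices. Its ratio was 0.743 (0.648 to 0.851) over all cells, 1.34 (1.17 to 1.52) over neutrophils with at least 1000 UMIs and 1.29 (1.13 to 1.47) over neutrophils with a mitochondrial UMI. The 1000 UMI filter lowered the denominator from 4328 to 2982 in shZdhhc17 and from 6594 to 5719 in shSCR. ECM Remodeling cells went only from 348 to 345 and from 498 to 495. The mitochondrial filter left 338 of 2975 neutrophils in ECM Remodeling in shZdhhc17 and 493 of 5584 in shSCR. As shares of all cells of a library, the direction of both clusters together turned, to 4.41% in shZdhhc17 against 5.26% in shSCR, a ratio of 0.839 (0.772 to 0.912). Depth per cell differed as well. ECM Remodeling cells had a median UMI count of 3963 in the shZdhhc17 library, against 5370.5 in the shSCR library, and Migration 2 cells one of 1494 (shZdhhc17) against 2192.5 (shSCR). With the libraries matched on UMIs, the combined ratio was 1.45. With 1 pooled library per group, differences between mice cannot be told apart from the hairpin.

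Across the 17 annotated cell types, levels of the members were not analysed here. The gene table of all 44371 cells listed all 6 members and flagged the same 5 of them, without Stfa1, among its 1000 most variable genes, against 3.51% of its 28523 genes. Of the rest of the locus, Csta3 was flagged in both sets, while Csta1, Csta2 and Cstdc6 were flagged in neither. Cstdc6 was thus a listed marker of ECM Remodeling without being among the most variable genes of neutrophils.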

How the data were processed

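Single-cell RNA was measured in 1 pooled library per group. Reads went through the BD Rhapsody pipeline and an ambient RNA correction, and cells were clustered and annotated, with mm10 (GRCm38) gene symbols, per the file headers. The submitters' processing notes name Seurat 4.1.0. Sources used here do not give the version of the pipeline or the name of the correction tool. The deposited cell tables hold counts of UMIs and genes per cell and the mitochondrial percent of UMIs. The authors' deposited marker table holds log2 fold changes from Seurat's Wilcoxon method, the fraction of cells with a gene above 0 inside and outside each cluster, and a specificity and a marker score per gene. All 10922 cells of the neutrophil table carry the authors' neutrophil label in the table of all cells, so none has their doublet label; no further filter on cells was applied.

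From these, whole cell numbers were recovered as those that give the deposited fraction at 4 decimals (1 possible number for each value printed), and least shares per library follow by giving all cells without the gene to that library. The step was also run on simulated cells, in numbers equal to those of ECM Remodeling only. The limits hold there by arithmetic, so the run checks the calculation and no more. Numbers outside a cluster and in Migration 2 were not simulated. Shares have exact binomial 95% intervals, and ratios log-normal counting intervals. Coding sequences (GENCODE M21) were aligned globally in Biopython 1.88 (match 2, mismatch -1, gap opening -5, extension -1). They stand in for proteins, which were not used here. Python 3.11.15 and SciPy 1.17.1 were used.

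The members and gene lists were chosen with earlier results of these data known. Genes were named by rule: all members, list genes among the markers, markers within 1000000 bases of a member, and the 3 markers of the same cluster nearest to a member by log2 fold change. A gene that the rule names is not reported here. Cd52 and Asprv1 mark the edge of the list. Alternatives were other marker limits, denominators, filters and matching on UMIs. There was no test between groups.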

Additional observations from a re-analysis of the deposited data

How the results depend on the processing

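No paired analysis was possible because each group is 1 pooled library, and for the same reason no replicate could be left out. The count of 5 members among the markers was 5 under each of the 3 stricter limits tried (log2 fold change of 1 or more, the 10 highest by marker score, detection in at least 50% of the cluster). All 5 had log2 fold changes of 1.54 or more, rank 8 or better and detection of 86.4% or more. The count was thus fixed by values known when the members were chosen. The full list is 0.835% of all genes, and shares under the stricter limits were not computed. Ordered by the gap in detection in place of the log2 fold change, Stfa3 stayed first in ECM Remodeling, while Cstdc5 moved to place 9, Stfa2 to 6 and Cstdc4 to 18, and Stfa2l1 moved to place 2 in Migration 2. With all cells as denominator the share ratios (shZdhhc17 over shSCR) turned to 0.907 (0.815 to 1.01) for Migration 2 and 0.839 for both clusters. That of ECM Remodeling was 0.743. With this denominator the exact intervals of Migration 2 overlapped, while those of both clusters together were separate. With at least 1000 UMIs per cell the ratio was 1.34 for ECM Remodeling and 1.39 for both, and after matching on UMIs 1.38 for ECM Remodeling, 1.51 for Migration 2 and 1.45 for both. Without cells at a mitochondrial percent of 0, ECM Remodeling was at 1.29. The cause was not tested. The median coding identity was 79.3% with gaps as mismatches, and with stretches of 30 bases the median share found in another gene was 46.0% in place of 25.8%. The stretch lengths, TTTAAA and the use of coding sequences were chosen after the data were seen.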
